A study of Tetranychus urticae with 8 samples.

Results

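The transcripts described here encode 5 subunits of the mitochondrial respiratory chain in the two-spotted spider mite (Tetranychus urticae), a plant-feeding mite. They are subunits A to D of succinate dehydrogenase, called SdhA (tetur08g03210), SdhB (tetur01g15710), SdhC (tetur30g00210) and SdhD (tetur20g00790), and the PSST subunit of complex I (tetur07g05240). They were taken by gene ID from a list of named respiratory subunits, and not by their values. The choice was, however, made with earlier results of these data known. These transcripts hold 5 of the 17654 gene IDs of the count table. The table itself carries IDs without names, so the subunit names are those of the list and were not checked against sequence. All 5 had enough reads to be tested. The samples were whole bodies of intact adult females and intact adult males of the strain London, grown on detached bean leaves, with 4 libraries per sex. Females were collected at 3 days of age with about 200 animals in a library, and males at 1 to 2 days with about 800. Every difference given here is therefore one of sex, age and pool size together, which cannot be told apart.

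Succinate dehydrogenase, or complex II, is the one enzyme that belongs both to the citrate cycle and to the respiratory chain: it oxidizes succinate to fumarate and hands the electrons to ubiquinone. SdhA carries the flavin and the succinate site, SdhB carries the iron-sulfur clusters that lead electrons to the membrane, and SdhC and SdhD anchor the enzyme in the inner membrane and, with SdhB, form the ubiquinone site. Complex I passes electrons from NADH to the same ubiquinone pool, and PSST, known as NDUFS7 in mammals, carries the last iron-sulfur cluster before ubiquinone. Both enzymes matter in spider mites as targets of acaricides. Cyenopyrafen, cyflumetofen and pyflubumide act on complex II, while fenpyroximate, pyridaben and tebufenpyrad act on complex I.

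All 5 transcripts were lower in females than in males, by amounts that differed between subunits. SdhB differed most, with a level in females that was 32.4% of that in males, followed by PSST at 41.6%, SdhC at 51.7%, SdhA at 53.9% and SdhD at 74.0%. Each of the 5 passed the test for higher levels in males (edgeR quasi-likelihood test, adjusted p below 0.05 by Benjamini-Hochberg over 12885 genes), as did 46.2% of all tested genes, while 43.7% were higher in females. Taken with a difference of at least 2-fold, 2 of the 5 (SdhB and PSST) were higher in males, against 30.5% of all tested genes. That share was lower among genes at the levels of the members, as given below. With upper quartile scaling, which moved the median log2 fold change of all genes to -0.27, SdhA and SdhC also passed 2-fold, at -1.10 and -1.16, and with a filter at 5 CPM SdhC did, at -1.01. The median log2 fold change, female minus male, was -0.95 over the 5 members and -0.05 over all tested genes.

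Library sizes ranged from 12912850 to 17443223 reads on genes in females and from 12082575 to 21414612 in males. The lowest count of any member was 617 reads, for PSST in female replicate 2, so none of the values below rests on a few reads. Levels are read counts scaled for depth (CPM), with library sizes adjusted by TMM (a trimmed mean of M values), and they are shares of the mRNA of a whole body. A lower share in whole bodies can come from fewer cells that express a gene or from less RNA per cell. As a share, it also depends on the amount of RNA from all other genes. The data cannot tell these apart. Levels in CPM are not corrected for transcript length, so they are compared between sexes and not between genes.

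**Figure D1:**
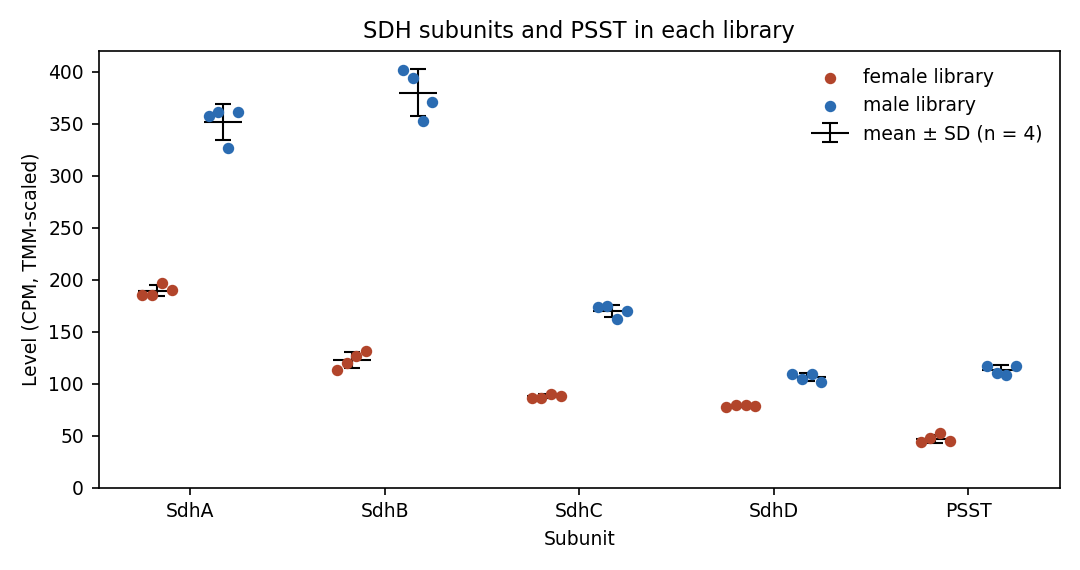
Levels (CPM, TMM-scaled, vertical axis) of the 5 subunits in each of the 4 female (red, left) and 4 male (blue, right) libraries, with the mean and SD as black bars. For every subunit the highest female library lies below the lowest male library, with the narrowest gap for SdhD (80.1 against 102 CPM).

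SdhA, the flavoprotein that binds succinate, had 186, 185, 197 and 190 CPM in female replicates 1 to 4, against 357, 361, 326 and 362 CPM in male replicates 1 to 4. The sexes did not overlap: the lowest male library was 1.66 times the highest female library. The mean was 190 ± 6 CPM in females and 352 ± 17 CPM in males (SD, n = 4 each), giving a log2 fold change, female minus male, of -0.89 ± 0.05 (SE; edgeR adjusted p = 3.18e-10). In linear terms males were 1.86-fold higher, with a 95% interval of 1.71 to 2.01 that reaches just past 2-fold. Male replicate 3 was the low library of its sex, and the other 3 male libraries lay close together. In mammals the transcript of SDHA is often used as a reference for quantitative PCR.

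SdhB, the iron-sulfur subunit, showed the largest difference of the 5. It had 113, 120, 127 and 132 CPM in female replicates 1 to 4, against 402, 394, 353 and 371 CPM in male replicates 1 to 4. Even the lowest male library was 2.68 times the highest female library. Means were 123 ± 8 CPM in females and 380 ± 22 CPM in males (SD, n = 4 each), with a log2 fold change of -1.63 ± 0.06 (SE; adjusted p = 1.71e-12 by edgeR). Males were thus 3.09-fold higher, with a 95% interval of 2.82 to 3.39.

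SdhC, a membrane anchor of complex II, had 85.9, 86.8, 90.7 and 88.7 CPM in female replicates 1 to 4, against 174, 175, 163 and 170 CPM in male replicates 1 to 4. Its libraries were tightly grouped within each sex and far apart between sexes. It averaged 88.0 ± 2.1 CPM in females and 170 ± 6 CPM in males (SD, n = 4 each), a log2 fold change of -0.95 ± 0.05 (SE; adjusted p = 3.95e-11 by edgeR). The 1.93-fold higher level in males has a 95% interval of 1.80 to 2.08, which includes 2-fold.

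SdhD, the partner of SdhC in the membrane, differed least. It had 77.3, 79.5, 80.1 and 78.4 CPM in female replicates 1 to 4, against 110, 105, 110 and 102 CPM in male replicates 1 to 4. Female libraries spanned less than 3 CPM, and the lowest male library was 1.27 times the highest of them. The means were 78.8 ± 1.2 CPM in females and 107 ± 4 CPM in males (SD, n = 4 each), for a log2 fold change of -0.43 ± 0.05 (SE; edgeR adjusted p = 3.28e-07). Males were 1.35-fold higher, and the 95% interval of 1.26 to 1.45 does not include 2-fold.

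PSST, the complex I subunit next to the ubiquinone site, had 43.9, 47.5, 52.5 and 44.9 CPM in female replicates 1 to 4, against 118, 110, 109 and 117 CPM in male replicates 1 to 4. The lowest male library was 2.07 times the highest female library. Its mean was 47.2 ± 3.8 CPM in females and 113 ± 5 CPM in males (SD, n = 4 each), with a log2 fold change of -1.27 ± 0.06 (SE; adjusted p = 1.92e-11 by edgeR). The 2.41-fold higher level in males has a 95% interval of 2.20 to 2.63.

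Separation of the 4 female from the 4 male libraries, with males higher, was seen in 5 of the 5 members and in 44.2% of all tested genes. The members are not at the extreme of the sex differences in this mite. A lower log2 fold change than that of SdhB was found for 21.7% of tested genes, and for 26.2%, 31.5%, 32.6% and 41.7% in the case of PSST, SdhC, SdhA and SdhD. Regardless of sign, log2 fold changes had a median size of 1.22 over all tested genes. SdhB and PSST lay above that size and the other 3 below it.

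**Figure D2:**
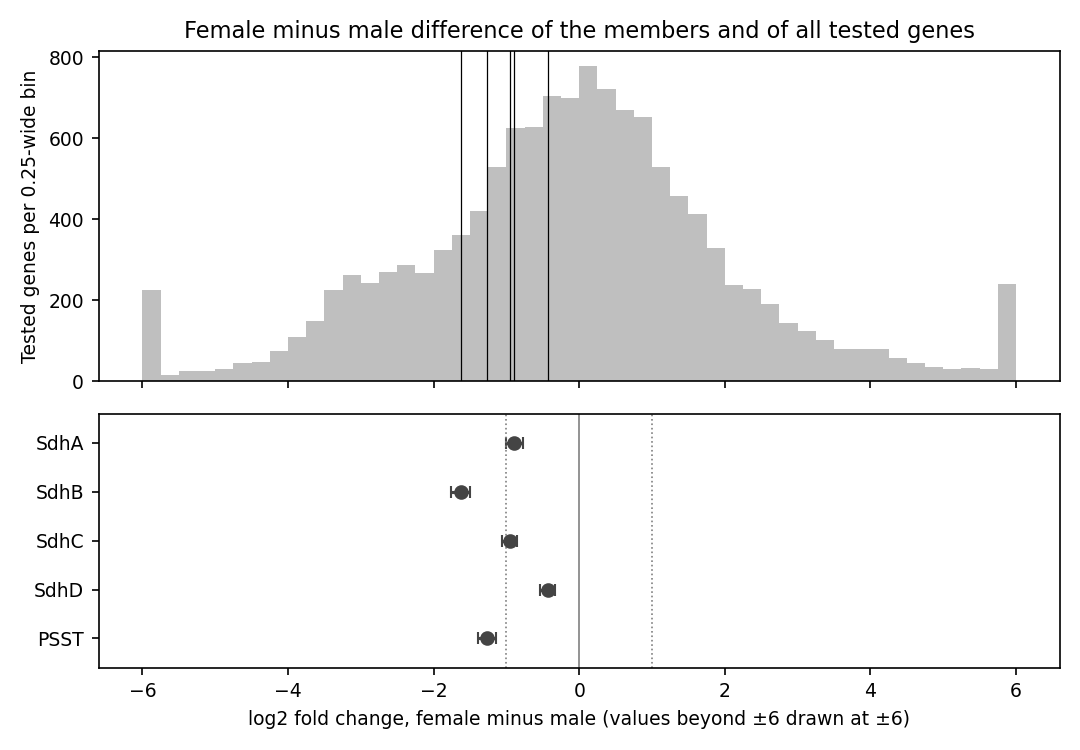
Upper panel, histogram of the log2 fold change, female minus male, of the 12885 tested genes, with the 5 members as thin vertical lines. Lower panel, the log2 fold change of each member with its 95% interval, a solid line at 0 and dotted lines at 2-fold in either direction: SdhB and PSST lie wholly beyond 2-fold, SdhA and SdhC reach that line, and SdhD lies between it and 0.

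The level of all 4 complex II transcripts together was 479 ± 15 CPM in females and 1009 ± 42 CPM in males (SD, n = 4 each). It ranged from 462 to 495 CPM over female libraries and from 951 to 1043 CPM over male libraries, so that the female sum was 47.5% of the male sum. The make-up of this sum differed between the sexes. SdhB supplied 25.6% ± 1.0 of the complex II reads in females and 37.7% ± 0.8 in males, and SdhD 16.4% ± 0.4 in females and 10.6% ± 0.7 in males. SdhA supplied 39.6% ± 0.6 in females and 34.9% ± 0.8 in males, and SdhC 18.4% ± 0.2 in females and 16.9% ± 0.2 in males. These are shares of reads and, without transcript lengths, not of molecules.

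Whether the subunits changed in step was tested with the ratio of 2 members within a library. Such a ratio does not depend on how libraries are scaled, and transcript length cancels from its difference between sexes. All 10 pairs were compared, and in none did a female library reach the range of the male ones. Every exact two-sided permutation test therefore gave p = 0.0286, the smallest that 4 against 4 libraries allow. Adjusted by Benjamini-Hochberg over the 10 pairs, the permutation p stayed at 0.0286, since all 10 values were equal. The pairs share members, so they are not 10 separate results. How often pairs of other tested genes separate in this way was not counted. Separation of every pair is therefore not shown to be particular to these subunits. The sizes of the differences between the sexes ranged widely.

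SdhA and SdhC stayed nearly in step. There were 2.16, 2.13, 2.17 and 2.15 SdhA reads for each SdhC read in female replicates 1 to 4, against 2.06, 2.07, 2.01 and 2.13 in male replicates 1 to 4. The ratio was 1.04 times as high in females as in males, a log2 difference of 0.06 against an SD within a sex of 0.0264. The separation of this pair was very narrow, at 2.134 in female replicate 2 against 2.131 in male replicate 4. That gap is far below counting error, which in females is 1.91% for SdhA and 2.81% for SdhC. The flavoprotein and this anchor thus differed between the sexes by almost the same factor.

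SdhB and SdhD departed most from each other. There were 1.46, 1.51, 1.58 and 1.68 SdhB reads for each SdhD read in female replicates 1 to 4, against 3.67, 3.75, 3.21 and 3.65 in male replicates 1 to 4. The log2 ratio differed by -1.19, female minus male, so that the ratio was 2.29 times as high in males. The SdhB to SdhD ratio of the highest female library remained well below that of the lowest male library.

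The catalytic subunits also differed from each other. SdhA reads per SdhB read were 1.64, 1.54, 1.55 and 1.45 in female replicates 1 to 4, against 0.889, 0.917, 0.926 and 0.974 in male replicates 1 to 4. The ratio was higher in every female library than in any male library, with a log2 difference of 0.74. The ratio of SdhB to SdhC differed by -0.68, and that of the 2 anchors, SdhC to SdhD, by -0.52 (log2, female minus male). The ratio of SdhA to SdhD differed by -0.46.

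PSST lay between SdhB and the remaining subunits. The log2 ratio of SdhB to PSST differed by -0.36, female minus male, and those of SdhA, SdhC and SdhD to PSST by 0.38, 0.32 and 0.83. The complex I subunit therefore differed between the sexes more than SdhA, SdhC and SdhD did, and less than SdhB.

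**Figure D3:**
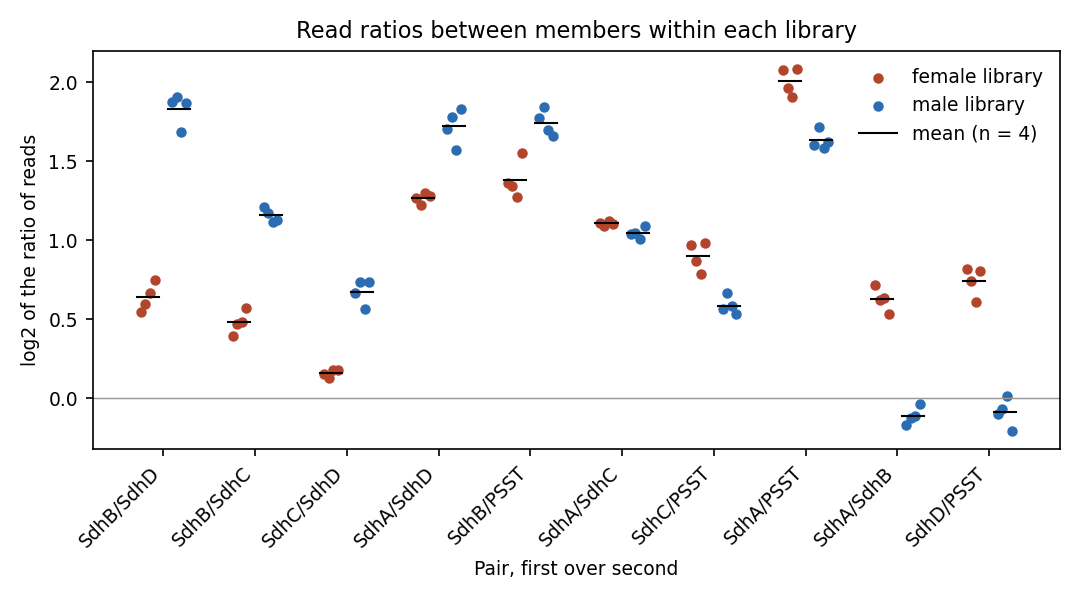
log2 of the ratio of reads between 2 members in each female (red, left) and male (blue, right) library, with group means as black lines, for the 10 pairs ordered by the difference of the sexes. The sexes are farthest apart for SdhB/SdhD (-1.19) and SdhD/PSST (0.83) and nearly level for SdhA/SdhC (0.06).

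Replicate pools of a sex were close. The coefficient of variation of CPM was lowest for SdhD in females, at 1.58%, and 3.65% in males. SdhC varied by 2.39% in females and 3.26% in males, and SdhA by 2.91% in females and 4.83% in males. The widest spreads were those of PSST, at 8.14% in females and 4.19% in males, and of SdhB, at 6.62% in females and 5.90% in males. Counting error alone gives 2.97% for SdhD and 2.81% for SdhC in females, so the spread of these anchors between female pools was no larger than that of read sampling. For SdhB in females counting error gives 2.38% and for PSST 3.84%. In the fit over all genes, the fitted biological coefficient of variation was 0.0476 for SdhD, 0.0517 for SdhC, 0.0577 for PSST, 0.0615 for SdhA and 0.0691 for SdhB. edgeR draws these values toward a trend over all genes. They are therefore not the measured spread of each gene and can exceed it. The share of tested genes with a lower fitted value was 3.97% for SdhD, 11.3% for SdhC, 25.4% for PSST, 34.3% for SdhA and 47.4% for SdhB. All 5 values lay below the trend of the fit for genes of the same level, which ran from 0.0619 at the level of PSST to 0.0779 at that of SdhA.

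In 3 of the 8 libraries all members departed from the mean of their sex in the same direction. The members of a library share its scaling, and how often other genes moved together in this way was not counted. Female replicate 3 was above the mean of its sex for all 5 members, by 0.02 (SdhD) to 0.16 (PSST) on the log2 scale, and female replicate 1 was below it for all 5, by up to 0.12 (SdhB). In males, replicate 1 was above the mean for all 5, by 0.02 to 0.08. Male replicate 3 was below it for SdhA, SdhB, SdhC and PSST, where SdhA and SdhB stood at -0.11 each, and above it for SdhD, at 0.04. These departures, at most 0.16, are smaller than the smallest difference between the sexes, the 0.43 of SdhD.

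**Figure D4:**
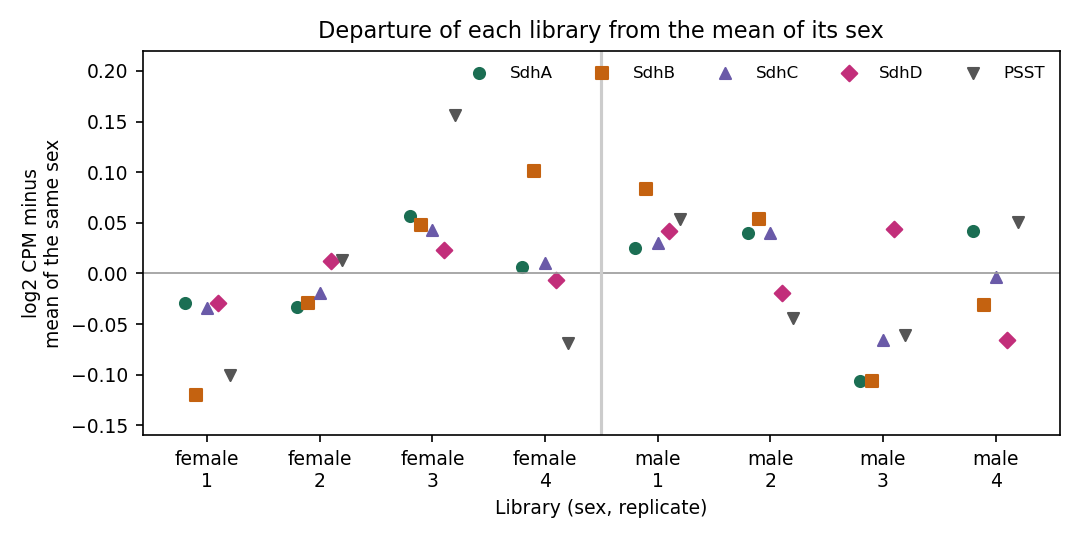
Departure of each library from the mean of its sex (log2 CPM, vertical axis) for the 5 members, female libraries on the left and male libraries on the right. Points stay within 0.16 of 0, with all 5 members above the mean in female replicate 3 and male replicate 1 and all 5 below it in female replicate 1.

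The gene IDs of the members stand in different numbered blocks (tetur01, tetur07, tetur08, tetur20 and tetur30) and are not neighbours of one another. Among the 50 tested IDs nearest to them in ID order, 5 on either side of each, 24 were higher in females and 22 in males. Their log2 fold changes ran from -4.38 to 5.34. With the tested genes divided into 5 classes of average CPM, SdhA, SdhB, SdhC and SdhD fell into the highest and PSST into the next. These 2 classes meet at 83.3 CPM, and without transcript lengths they do not rank the members by abundance. Of the genes in the highest class 45.9% were higher in males, and of those in the next class 38.1%. With a difference of at least 2-fold as well, these shares were 23.2% in the highest class and 20.4% in the next.

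Other genes had profiles over the 8 libraries close to those of the members. Among tested genes other than the members, tetur18g01070 was nearest to the mean profile of the 4 complex II subunits. Its root mean square distance was 0.0232 (log2 CPM centred on each gene's own mean). This gene averaged 166 ± 2 CPM in females and 330 ± 12 CPM in males (SD, n = 4 each). The gene nearest to PSST was tetur06g01850, at a distance of 0.0305, with 46.4 ± 4.3 CPM in females and 111 ± 4 CPM in males. SdhC and SdhA lay close to the complex II mean themselves, at distances of 0.0175 and 0.0526, while SdhD and SdhB were farther from it, at 0.275 and 0.329. Each of the 4 is part of that mean, and SdhB and SdhD lie on opposite sides of it. The short distances of SdhC and SdhA are therefore partly built in. Counted for each member on its own, the genes within a distance of 0.1 were 274 for SdhA (2.13% of the other tested genes), 86 for SdhB (0.668%), 300 for SdhC (2.33%), 357 for SdhD (2.77%) and 116 for PSST (0.901%). Because the 8 libraries fall into the 2 sexes, a short distance mostly records a like difference between females and males.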

How the data were processed

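RNA was measured by strand-specific, oligo dT-selected sequencing, per the labels' protocols. The authors deposited raw counts, whole numbers of reads for each gene ID, which had not been normalized. STAR 2.4.1d and HTSeq 0.6.1 are listed in the submitters' processing notes. Settings, genome build, annotation and the handling of multiply matching reads: not given in the sources used here. Reads of overlapping genes or near-identical copies may be lost or misassigned.

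Columns were assigned by the names in the sample descriptions, and sex by the titles. The labels call the 4 libraries per sex biological replicates but do not state separate cultures, so the spread behind each p-value is that of these pools and may be technical. The test was the quasi-likelihood F test of edgeR 4.0.16 (R 4.3.3) with sex as the only term, TMM scaling and filterByExpr, which left 12885 of 17654 IDs. Each standard error is |log2 fold change| over √F, and 95% intervals use the same degrees of freedom as the test. A gene was called at an adjusted p below 0.05. The step was tested on simulated counts with known changes. Ratios of 2 members were taken from the raw counts and compared by exact permutation over 70 assignments. Counting errors cover read sampling only.

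All 5 members are named; the 2 further IDs are the nearest in centred log2 CPM to the complex II mean and to PSST. The members, lists and tests were chosen with earlier results of these data known. Of the IDs, 0 matched the RefSeq gene table (assembly NJAU_TeUrti_SD_1.0), so 7 lists of other respiratory chain and citrate cycle genes were not used and no sequence or coordinate is given. Alternatives were 3 other scalings, 2 other filters, DESeq2 1.42.0, limma-voom (limma 3.58.1), a replicate block, and fits with single libraries removed.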

Additional observations from a re-analysis of the deposited data

Results flagged for a closer look

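The level of SdhA in male replicate 3, 326 CPM, stood apart from the other male libraries at 357 to 362 CPM: its gap to the nearest of them was 0.881 of the whole range, above the 95% critical value of 0.829 for 4 values (Dixon). Chance flags about 1 in 20 groups, and 10 groups were examined. Without this library the log2 fold change of SdhA was -0.93 (adjusted p = 5.48e-10 by edgeR).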

How the results depend on the processing

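Each of the 5 members stayed lower in females in all 16 alternative settings, at an adjusted p of 3.85e-06 or less (edgeR, DESeq2 or limma-voom). Only DESeq2 and limma-voom replaced the edgeR test. The others kept it and changed the scaling, the filter, the block or the libraries. Upper quartile scaling moved the median of all genes to -0.27 (log2) and the members with it, SdhA to -1.10 and SdhC to -1.16, past 2-fold. The filter at 5 CPM put SdhC at -1.01. SdhB and PSST were past 2-fold in all 16 and SdhD in 0. Counts of genes called stayed within 1.5 times those reported. With the filter at 5 CPM, 2966 were at least 2-fold higher in males, and with no filter 4573.

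No pairing by replicate number was seen, as same-numbered libraries deviated from their group means with correlations of -0.0926, 0.00167, 0.0185 and 0.0351, and 1 of 8 samples deviated most like the library with its own number. With the replicate block SdhB stood at -1.63 (adjusted p = 3.14e-10) and 5916 genes were higher in males. An exact paired sign-flip test over 4 replicate numbers cannot go below p = 0.125, so the log2 ratios do not pass by construction, at the same differences: SdhA/SdhB 0.74, SdhA/SdhC 0.061, SdhA/SdhD -0.46, SdhA/PSST 0.38, SdhB/SdhC -0.68, SdhB/SdhD -1.19, SdhB/PSST -0.36, SdhC/SdhD -0.52, SdhC/PSST 0.32 and SdhD/PSST 0.83.

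With 1 library left out the exact test cannot go below 0.0571. The differences then ranged from 0.71 to 0.77 for SdhA/SdhB, from 0.0473 to 0.0762 for SdhA/SdhC, from -0.51 to -0.42 for SdhA/SdhD, from 0.35 to 0.41 for SdhA/PSST, from -0.71 to -0.65 for SdhB/SdhC, from -1.24 to -1.16 for SdhB/SdhD, from -0.42 to -0.32 for SdhB/PSST, from -0.55 to -0.50 for SdhC/SdhD, from 0.29 to 0.35 for SdhC/PSST and from 0.79 to 0.88 for SdhD/PSST. Depth does not limit the members, which had at least 617 reads in every library.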
